A study of Homo sapiens with 6 samples.

Results

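Expression of 10 S100 calcium-binding protein genes was examined in MCF10A, a cell line of human breast epithelium that is immortal but does not form tumours. The 10 genes, S100A2, S100A4, S100A6, S100A7, S100A8, S100A9, S100A10, S100A11, S100A14 and S100A16, were taken by name from a table of 27914 genes. The study compared 3 libraries of cells with the genotype α-/-;βin with 3 libraries of wild-type SCRin control cells, and all 6 had received doxycycline for 3 days. What SCR, in, α and β stand for is not spelled out. The series title names PI5P4K, the family of lipid kinases encoded by the PIP4K2 genes, and α and β are read here as PIP4K2A and PIP4K2B. Whether the cells were 1 clone or a pool, and whether replicates came from separate cultures, is not stated, so the p-values reflect the spread among these libraries alone, and that spread may be technical.

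S100 proteins are small calcium sensors built from a pair of EF-hand motifs, and most work as dimers that open a binding surface for partner proteins when calcium is bound. Many of their genes lie together on the long arm of chromosome 1, beside the genes of the epidermal cornified envelope. Inside cells they bind annexins, myosins and other cytoskeletal proteins. Several are also released from stressed or inflamed epithelium, where they act on receptors such as RAGE and TLR4.

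The upstream sequences of 4 members are shown. S100A2 was the most abundant, and S100A8 and S100A9 varied most. S100A6 was the 1 of 9 tested members whose 2 groups did not overlap, which is no more than the 17.1% of all tested genes. Each line gives the 200 bases before a RefSeq transcription start, on the gene's own strand and from 5′ to 3′, in the RefSeq build GRCh38.p14. This is not the build of the deposited values (hg19), and the expression table does not say which start was used. Capitals mark TATAAA, the core of a TATA box, and TGANTCA, the AP-1 motif, both searched on both strands. The windows are chr1:153565845-153566044 (minus strand) for S100A2, chr1:153535992-153536191 (minus) for S100A6, chr1:153391074-153391273 (minus) for S100A8 and chr1:153357654-153357853 (plus) for S100A9. S100A8 has 3 listed starts and S100A2 has 2. The window with TATAAA was printed for S100A8, and that of the first listed start for S100A2.
S100A2: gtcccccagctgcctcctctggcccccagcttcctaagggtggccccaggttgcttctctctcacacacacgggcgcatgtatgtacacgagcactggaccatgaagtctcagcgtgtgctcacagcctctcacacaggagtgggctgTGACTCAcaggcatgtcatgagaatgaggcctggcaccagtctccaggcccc
S100A6: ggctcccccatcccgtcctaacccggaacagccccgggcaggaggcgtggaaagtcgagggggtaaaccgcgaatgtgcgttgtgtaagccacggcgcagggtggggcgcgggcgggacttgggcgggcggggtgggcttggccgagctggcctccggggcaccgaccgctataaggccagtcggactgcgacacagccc
S100A8: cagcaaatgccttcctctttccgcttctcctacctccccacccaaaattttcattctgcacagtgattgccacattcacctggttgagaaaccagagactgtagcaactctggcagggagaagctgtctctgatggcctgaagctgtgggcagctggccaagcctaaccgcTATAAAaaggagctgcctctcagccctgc
S100A9: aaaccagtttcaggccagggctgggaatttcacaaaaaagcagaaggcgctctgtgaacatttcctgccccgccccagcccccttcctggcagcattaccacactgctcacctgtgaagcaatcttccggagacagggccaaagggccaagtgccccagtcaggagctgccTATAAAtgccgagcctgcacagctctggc

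TATAAA began 29 bases before the start in both S100A8 and S100A9. It began 31 bases before the start of S100A4 and 28 bases before that of S100A7. Those 4 of the 10 members held it in at least 1 window, against 10.5% of 27305 genes with a RefSeq window. Only these exact letters were searched, and near variants such as the tataag in the printed S100A6 window were not counted. TGANTCA was found for S100A2 alone, 52 bases before the start, and 6.63% of all genes held it. The window of S100A6 was rich in CpG dinucleotides, with an observed-to-expected ratio of 0.85. Those of S100A10 and S100A11 had ratios of 0.81 and 0.79. The printed windows of S100A2, S100A9 and S100A8 had ratios of 0.22, 0.25 and 0.15, and the median over all 35116 windows was 0.57. These are counts of letters and say nothing about binding.

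The deposited values are TPM, a measure of transcript abundance per transcript length that is scaled to the same total in every library. The 12096 genes whose mean over the 6 libraries reached 1 TPM were tested by limma on log2(TPM + 1), with Benjamini-Hochberg adjustment and a threshold of 0.05. Of these, 265 (2.19%) passed, 221 (1.83%) lower and 44 (0.364%) higher in α-/-;βin cells. The number passing was 106 without control replicate 3, 119 without α-/-;βin replicate 3 and 163 without α-/-;βin replicate 1. PIP4K2A measured 4.20 ± 0.132 TPM in α-/-;βin cells and 20.6 ± 1.02 TPM in controls, and PIP4K2B 9.49 ± 1.83 and 21.8 ± 1.21 TPM (SD, n = 3 each). PIP4K2C, the third gene of the family, measured 34.0 ± 5.70 TPM in α-/-;βin cells and 43.1 ± 4.94 TPM in controls (SD, n = 3 each; limma adjusted p = 0.438). All 6 basal epithelial markers reached the filter, and 3 of 6 luminal markers did. The most abundant basal marker, KRT6A, measured 1868 ± 447 TPM in α-/-;βin cells and 1728 ± 542 TPM in controls, and the most abundant luminal marker, KRT18, 437 ± 5.04 and 449 ± 20.3 TPM (SD, n = 3 each). The 6 luminal markers summed to between 560 and 676 TPM in α-/-;βin libraries, against 628 and 726 TPM in controls. Among them the hormone receptor genes ESR1 and PGR stayed under 1 TPM. The luminal keratin KRT19 averaged 0.768 TPM and was at 0 in replicate 2 of both groups. None of the 3 luminal markers that reached the filter passed.

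S100 transcripts were among the most abundant in these cells, and none of the members passed the main test between the groups. A further fit used a replicate block, which takes equal replicate numbers as pairs. There 1 member, S100A2, passed among 881 genes in all. The 10 members together made up 2.54%, 2.00% and 2.46% of all TPM in α-/-;βin replicates 1 to 3, against 2.41%, 1.90% and 2.29% in control replicates 1 to 3. The groups overlapped in this sum. Of the 10 members, 9 reached the mean of 1 TPM and 0 of the 9 passed, against 2.19% of all tested genes. Members' log2 changes ran from -0.29 for S100A8 to 0.40 for S100A2, with a median of -0.03, and the median over all tested genes was -0.01. At an unadjusted p under 0.05 there was 1 member, S100A6, and 11.9% of all tested genes. The groups did not overlap for 1 member, again S100A6, and for 17.1% of all tested genes. With 9 tested members, neither count exceeds the share of all tested genes. S100A6 lay on the lower side. On the higher side, 0 members and 5.64% of all tested genes were separated.

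**Figure D1:**
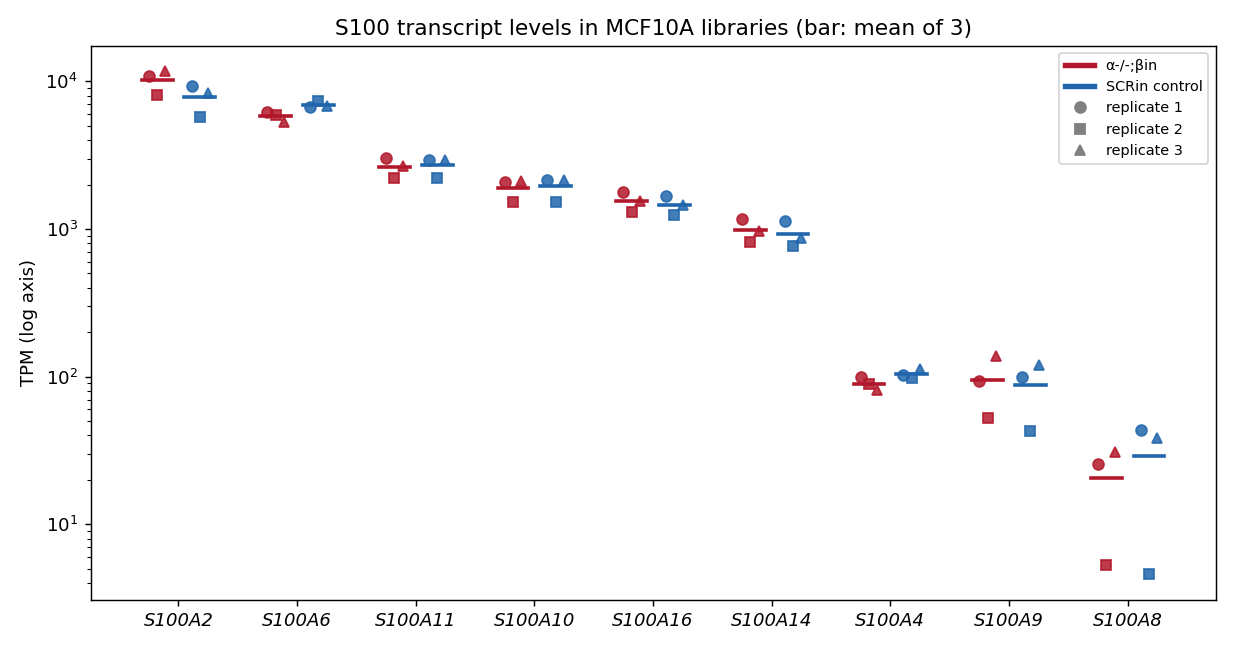
TPM on a log axis for the 9 members that reached a mean of 1 TPM, with 1 point per library, α-/-;βin left of SCRin control for each gene, a marker shape for each replicate number and a bar at the mean of 3. S100A6 is the gene whose points do not overlap between the groups, as for 17.1% of all tested genes. S100A8 has the widest spread within each group.

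By level, the members fell into an abundant set and a low set. S100A2 ranked 8th and S100A6 ranked 11th of all 27914 genes by mean TPM. S100A11, S100A10, S100A16 and S100A14 followed at ranks 57, 83, 109 and 152. S100A4, S100A9 and S100A8 were far lower, at ranks 1514, 1614 and 5122. The order of the means was not firm everywhere: libraries of S100A2 and S100A6 overlapped among controls but not among α-/-;βin cells. Those of S100A10 and S100A16, and of S100A4 and S100A9, overlapped in both groups. Those of S100A9 and S100A8 overlapped among controls alone.

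S100A2, a nuclear S100 protein of basal and squamous epithelium and a known target of the p53 family, had the highest level and the largest positive difference. It measured 10920, 8030 and 11735 TPM in α-/-;βin replicates 1 to 3, against 9259, 5760 and 8390 TPM in control replicates 1 to 3. The α-/-;βin library lowest in S100A2 lay below the controls 1 and 3, so the groups overlapped. The log2 change was 0.40 (SE 0.22, 95% interval -0.12 to 0.92, limma adjusted p = 0.563; exact two-sided permutation p = 0.3). Without control replicate 2 the change was 0.20, and over all single libraries left out it ran up to 0.57. The interval allows α-/-;βin levels from 0.923 to 1.89 times those of controls. With the replicate block S100A2 passed at the same log2 change (limma adjusted p = 0.0233), but the labels state no pairing. Of the summed TPM of the 10 members, S100A2 took 43.0%, 40.2% and 47.7% in α-/-;βin replicates, against 38.4%, 30.4% and 36.7% in control replicates. These shares did not overlap between the groups, and they also depend on the other members in the sum. The 6 basal epithelial markers all had log2 changes above 0, with a median of 0.51 against -0.01 for all tested genes. Of the 6, 3 had an unadjusted limma p under 0.05, against 11.9% of all tested genes. Groups did not overlap for 2 of the 6, against 17.1% of all tested genes. None of the 6 passed, their sum ran from 2893 to 4212 TPM in α-/-;βin libraries, against 2187 to 4151 TPM in controls, and their part in the S100A2 difference was not tested. TP63, among these the basal member of the p53 family, was picked once its values were known. It measured 29.6, 26.0 and 25.1 TPM in α-/-;βin cells, against 18.9, 13.1 and 16.2 TPM in controls (log2 change 0.72, limma adjusted p = 0.0664). It did not pass the test, and without control replicate 1 it did (adjusted p = 0.0495).

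S100A6, or calcyclin, which binds annexins and the calcyclin-binding protein CACYBP, was the member with the most distinct groups. It measured 6203, 5925 and 5332 TPM in α-/-;βin replicates 1 to 3, against 6750, 7320 and 6814 TPM in control replicates 1 to 3. Every α-/-;βin library lay below every control library. For 11.4% of all tested genes the groups were separated in that direction. The log2 change was -0.26 (SE 0.10, 95% interval -0.49 to -0.03, limma adjusted p = 0.349). With 3 libraries against 3, an exact permutation test cannot go below p = 0.1, the value obtained. S100A6 also varied little within groups: 87.3% of tested genes had a larger residual SD.

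S100A4, which binds nonmuscle myosin and is known for its part in cell motility, had a difference of similar size. It measured 98.8, 89.6 and 80.6 TPM in α-/-;βin cells, against 102, 97.8 and 112 TPM in controls. A single pair of values crossed, α-/-;βin replicate 1 and control replicate 2. The log2 change was -0.22 (SE 0.10, 95% interval -0.46 to 0.03, limma adjusted p = 0.505), so the difference was not separated from the spread. S100A4 and S100A6 were each other's closest S100 gene across the 6 libraries, with a root mean square difference of 0.10 in log2(TPM + 1) relative to the control mean. Fibroblasts also express S100A4. The 8 fibroblast markers summed to between 2.73 and 6.13 TPM in α-/-;βin libraries, against 1.96 and 6.32 TPM in controls, with COL3A1 and THY1 at 0 in all 6. The most abundant was DCN, with 2.34 ± 0.852 TPM in α-/-;βin cells and 2.17 ± 1.54 TPM in controls (SD, n = 3 each).

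S100A10 and S100A11, the partners of annexin A2 and annexin A1, had nearly equal means in both groups, and each interval spans a change in either direction. S100A10 measured 2075, 1527 and 2101 TPM in α-/-;βin cells, against 2134, 1532 and 2164 TPM in controls (log2 change -0.03, 95% interval -0.46 to 0.40, limma adjusted p = 0.981). S100A11 measured 3027, 2217 and 2653 TPM in α-/-;βin cells, against 2942, 2214 and 2928 TPM in controls (log2 change -0.03, 95% interval -0.41 to 0.35, limma adjusted p = 0.974). Within each group replicate 2 was the lowest for both genes, and the groups covered nearly the same range. RefSeq lists 10 S100A11 pseudogenes, so reads of S100A11 may have been shared with near-identical copies. The sign of both small changes turned without α-/-;βin replicate 2, control replicate 1 or control replicate 3.

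S100A14 and S100A16, epithelial S100 genes that lie next to each other, had overlapping groups as well. S100A14 measured 1175, 813 and 974 TPM in α-/-;βin cells, against 1131, 766 and 868 TPM in controls (log2 change 0.10, 95% interval -0.33 to 0.54, limma adjusted p = 0.908). S100A16 measured 1790, 1297 and 1546 TPM in α-/-;βin cells, against 1661, 1236 and 1446 TPM in controls (log2 change 0.09, 95% interval -0.28 to 0.46, limma adjusted p = 0.901). This pair had the most similar library profiles of all S100 genes tested, with a root mean square difference of 0.06.

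S100A8 and S100A9 form calprotectin, a secreted antimicrobial complex that binds zinc and manganese and is made by myeloid cells and by inflamed epithelium. They varied far more between libraries of a group than between the groups. S100A8 measured 25.7, 5.32 and 31.1 TPM in α-/-;βin replicates 1 to 3, against 43.6, 4.57 and 38.6 TPM in control replicates 1 to 3. S100A9 measured 94.2, 52.7 and 137 TPM in α-/-;βin cells, against 99.4, 43.0 and 120 TPM in controls. For both genes the lowest library of each group was replicate 2. The highest value over the lowest was 9.53 for S100A8 and 3.19 for S100A9. Only 1.31% of tested genes had a larger residual SD than S100A8, and 3.40% a larger one than S100A9.

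The test of the calprotectin genes was correspondingly imprecise. The log2 change of S100A8 was -0.29 (95% interval -2.49 to 1.91, limma adjusted p = 0.956) and that of S100A9 was 0.13 (95% interval -0.95 to 1.22, limma adjusted p = 0.959). For S100A8 the interval runs from 0.179 to 3.75 times the control level, so a difference of several fold in either direction could not have been seen. The sign of either change turned when single libraries were left out. S100A8 stood at 0.45 without α-/-;βin replicate 2, 0.24 without control replicate 1 and 0.15 without control replicate 3. S100A9 stood at -0.18 without α-/-;βin replicate 3 and -0.31 without control replicate 2. The ratio of S100A8 to S100A9 was 0.273, 0.101 and 0.227 in α-/-;βin libraries, against 0.439, 0.106 and 0.321 in controls. In bulk RNA, fewer expressing cells and less RNA per cell cannot be told apart.

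Markers of leukocytes, which also make calprotectin, stayed at or below 1.34 TPM in every library apart from CD14. Of 8 leukocyte markers, PTPRC, CD163 and FCGR3B were at 0 in all 6 libraries. The 8 summed to between 8.38 and 10.8 TPM in α-/-;βin libraries, against 3.18 and 6.99 TPM in controls. Most of this was CD14, a lipopolysaccharide co-receptor also found outside leukocytes, with 8.12 ± 1.24 TPM in α-/-;βin cells and 4.43 ± 1.69 TPM in controls (SD, n = 3 each; limma adjusted p = 0.264). The groups did not overlap, as for 17.1% of all tested genes, and CD14 did not pass the test.

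Replicate 2 was the lowest of its 3 libraries in both groups for 7 of the 9 tested members, against 16.3% of all tested genes. This count was made after the values were seen. The exceptions were S100A4 and S100A6. Relative to the mean of replicates 1 and 3 of its own group, replicate 2 of the α-/-;βin cells held 18.7% of the S100A8 level, and replicate 2 of the controls 11.1%. For S100A9 the values were 45.6% and 39.2%. For S100A2 they were 70.9% and 65.3%, and for S100A10, S100A11, S100A14 and S100A16 between 71.3% and 79.6%.

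**Figure D2:**
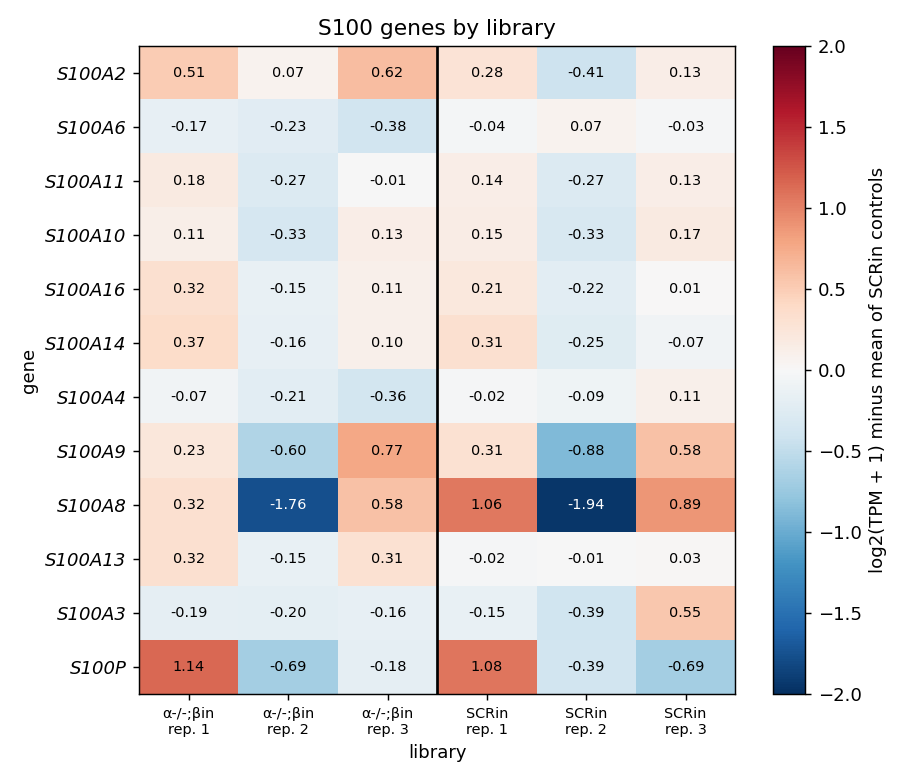
Difference of log2(TPM + 1) from the mean of the controls for each S100 gene (rows) in each library (columns), α-/-;βin left of SCRin control. S100A8 stood at -1.76 and -1.94 in the replicate 2 libraries of the α-/-;βin and control groups, and the S100A6 values of all α-/-;βin libraries lay below 0.

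With both replicate 2 libraries left out, an analysis chosen after seeing the data, 0 of the 9 members passed the limma test, and 52 of all genes did. S100A2 then stood at 0.36 (adjusted p = 0.496), S100A6 at -0.24 (adjusted p = 0.680) and S100A4 at -0.26 (adjusted p = 0.628). S100A8 stood at -0.52 (adjusted p = 0.297) and S100A9 at 0.06 (adjusted p = 0.972). The 4 abundant members S100A10, S100A11, S100A14 and S100A16 stood between -0.05 and 0.11. The part of sequencing depth or RNA quality in the replicate 2 pattern was not tested, since TPM keeps no depth. Genes for short RNAs took 7.35% of TPM in α-/-;βin replicate 2 and 7.52% in control replicate 2, the lowest share of each group. In the other libraries they took between 8.03% and 8.65%.

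S100A7, or psoriasin, which is induced in psoriatic skin and in some breast lesions, was close to absent. It was listed at 0 in all 3 α-/-;βin libraries and in control replicates 2 and 3, and at 0.979 TPM in control replicate 1. It lay below the filter and was not tested. S100A7A, its near-identical neighbour, was at 0 in all 6 libraries, and RefSeq lists 2 S100A7 pseudogenes. How reads shared between such copies were counted is not stated, so these low values are uncertain.

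The S100 genes outside the 10 members gave 0 calls as well, against 2.19% of all tested genes. Of 11 such names, 10 were in the table and 3 reached a mean of 1 TPM. S100A13, which is involved in unconventional secretion of growth factors, measured 668, 479 and 660 TPM in α-/-;βin cells, against 527, 529 and 545 TPM in controls (log2 change 0.16, 95% interval -0.17 to 0.48, limma adjusted p = 0.744). S100A3, known from the hair cuticle, measured 34.4, 34.1 and 35.01 TPM in α-/-;βin cells, against 35.2, 29.6 and 57.8 TPM in controls (limma adjusted p = 0.844). S100P, which is expressed in placenta and several carcinomas, measured 46.2, 12.3 and 17.8 TPM in α-/-;βin cells, against 44.1, 15.3 and 12.3 TPM in controls (limma adjusted p = 0.981). In each group its replicate 1 was far above the other two. S100A12, S100G and S100Z were at 0 in all libraries. S100A1, S100A5 and S100B, the glial and melanocytic member, stayed below a mean of 1 TPM. Of 6 melanocyte and glial markers, 4 were at 0 in all libraries, and the most abundant, PMEL, stayed at or below 0.348 TPM. S100A13 overlaps S100A1 and CHTOP in RefSeq, and S100A4 overlaps S100A5, and because strandedness is not stated their reads may not be separable.

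**Figure D3:**
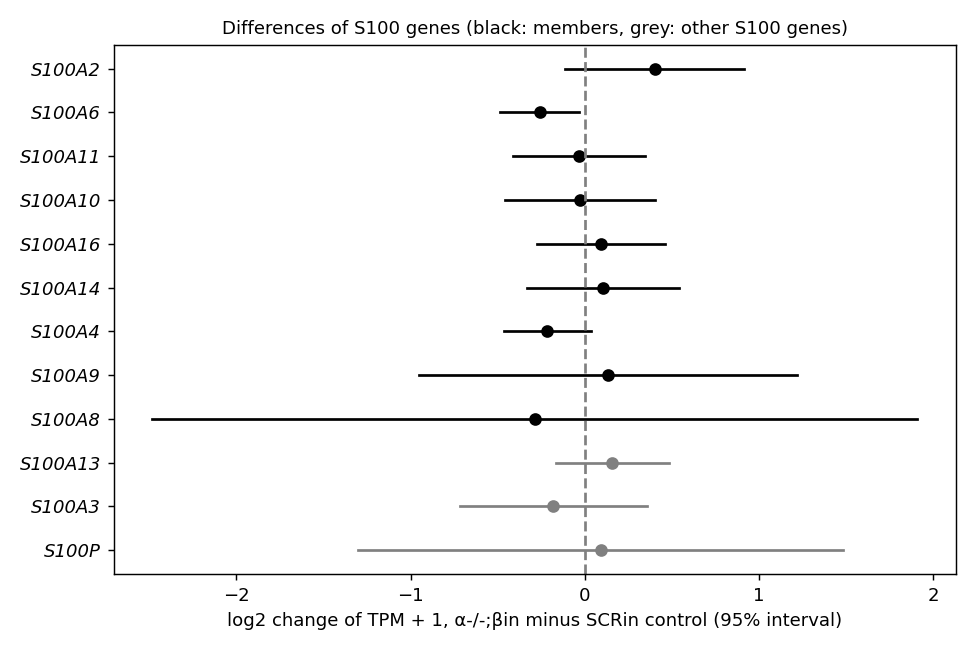
Log2 change of TPM + 1, α-/-;βin minus SCRin control, with 95% limma intervals, for the 9 tested members (black, by falling mean TPM) and 3 other S100 genes (grey). All intervals but that of S100A6, from -0.49 to -0.03, include 0.

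Of 16 tested intracellular binding partners 0 passed, which is near the 2.19% of all tested genes in so short a list. Their median log2 change was -0.06. The most abundant, ANXA2, which forms a tetramer with S100A10 at membranes, measured 4465, 3233 and 4120 TPM in α-/-;βin cells, against 4250, 3063 and 3923 TPM in controls (log2 change 0.07, limma adjusted p = 0.934). The most distant from 0 was ANXA6, another annexin bound by S100 proteins and chosen after its values were seen. It measured 13.9, 7.83 and 15.6 TPM in α-/-;βin cells, against 25.6, 22.6 and 33.4 TPM in controls. The groups did not overlap, yet the log2 change of -1.10 did not pass (SE 0.26, limma adjusted p = 0.108). Of the 16 partners, 4 had groups that did not overlap, against 17.1% of all tested genes.

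Receptors of extracellular S100 proteins gave 0 calls among the 4 of 6 that reached the filter, against 2.19% of all tested genes. BSG, the receptor basigin, was the most abundant, with 352, 393 and 363 TPM in α-/-;βin cells, against 305, 324 and 320 TPM in controls. Its groups did not overlap, and its log2 change of 0.22 did not pass (limma adjusted p = 0.336). Groups did not overlap for 2 of the 4 tested receptors, against 17.1% of all tested genes. TLR4, the receptor of calprotectin and of lipopolysaccharide, chosen after its values were seen, was listed at 0, 0.170 and 0.361 TPM in α-/-;βin cells, against 2.33, 2.39 and 1.23 TPM in controls. Its mean of 1.08 TPM reached the filter through the controls alone (mean 1.98 TPM, against 0.177 TPM in α-/-;βin cells). A gene admitted by its higher group tends to appear lower in the other, so these values are no support for a difference. The groups did not overlap at these low levels, and the log2 change of -1.33 missed the threshold (limma adjusted p = 0.0822). The size of this change depended on the pseudocount, at -3.11 with 0.1 and -0.43 with 5. TLR4 passed when short RNA genes were left out (limma adjusted p = 0.0463) and without the mean-variance trend (0.0301). The range was 0.0301 to 0.211 over the 13 alternatives that tested it. It fell below the filter at a mean of 5 TPM, without control replicate 1, without control replicate 2, and with replicates 1 and 3 only. AGER, which encodes RAGE, and CD36 were below the filter.

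Antimicrobial, cornified envelope and other calcium-binding genes were compared next, beside the 2.19% of all tested genes that passed. Among 17 tested antimicrobial and interleukin-responsive genes, 1 passed. IL1B, the cytokine interleukin-1β, which can induce S100A8 and S100A9 in keratinocytes, measured 168, 152 and 144 TPM in α-/-;βin cells, against 44.2, 30.8 and 47.8 TPM in controls (log2 change 1.91, SE 0.17, limma adjusted p = 0.00471). The other 16 did not pass, and the list's median was 0.04. Cornified envelope genes of chromosome 1 were barely expressed: 4 of 22 reached the filter, 9 were at 0 in all libraries, and 0 passed (1 without α-/-;βin replicate 2). IVL, the envelope protein involucrin and the most abundant of them, measured 7.46, 1.97 and 7.501 TPM in α-/-;βin cells, against 3.84, 1.47 and 5.97 TPM in controls. All 7 genes of the fused S100 type, such as filaggrin, lay below the filter, with 5 at 0 throughout and TCHH, the most abundant, at or below 0.445 TPM. Of 19 tested EF-hand genes outside the S100 family, 0 passed (median -0.05). CALM2, a calmodulin gene, was the most abundant, with 1278 ± 140 TPM in α-/-;βin cells and 1407 ± 148 TPM in controls (SD, n = 3 each; limma adjusted p = 0.732).

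**Figure D4:**
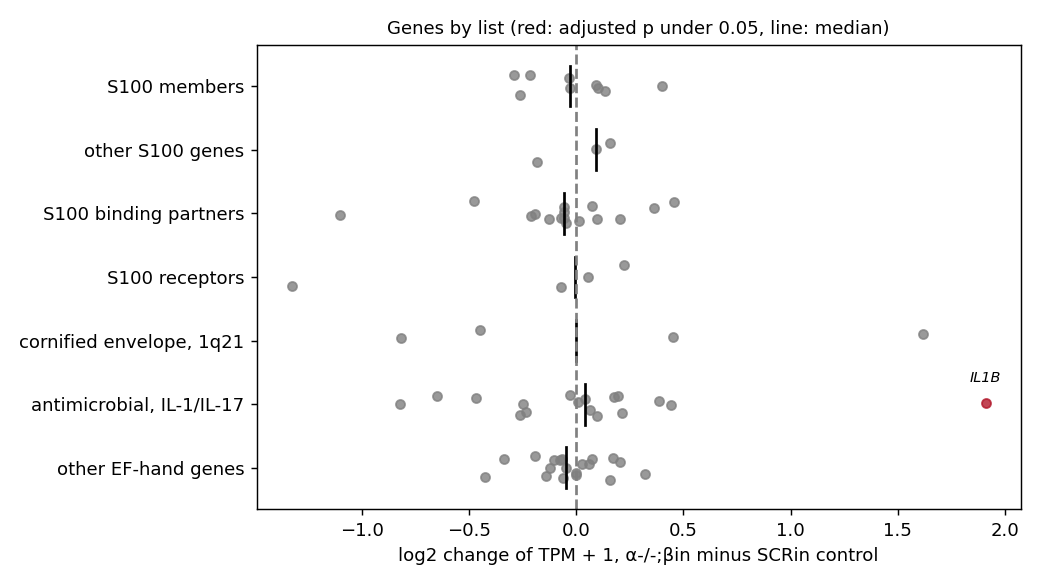
Log2 change of TPM + 1, α-/-;βin minus SCRin control, for each tested gene of 7 lists (points, with vertical scatter for legibility), the median of each list (line) and genes past the threshold in red. IL1B at 1.91 is the single gene past the threshold.

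All 10 members lie on chromosome 1, and none of the tested genes around them passed. In RefSeq order the tested genes from S100A10 to S100A13 were 11 S100 genes and 4 cornified envelope genes. The S100 genes had a median log2 change of -0.03. The 15 tested genes before S100A10 had a median of -0.09 and the 15 after S100A13 a median of -0.02. None of these 45 genes passed the limma test, against 6 higher and 6 lower among the 1223 tested genes of chromosome 1, whose median was -0.02. The neighbouring genes S100A6, S100A4 and S100A3 all had changes below 0, at -0.26, -0.22 and -0.18. The next tested genes in order, S100A2, S100A16, S100A14 and S100A13, all had changes above 0, between 0.09 and 0.40. This split was picked out after the values were seen. The tested genes on either side, S100A8 before S100A6 and CHTOP after S100A13, stood at -0.29 and -0.18. None of the 7 genes from S100A6 to S100A13 passed the test. The direction of S100A3 turned without control replicate 3, and that of S100A14 and S100A16 without α-/-;βin replicate 1 or control replicate 2.

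**Figure D5:**
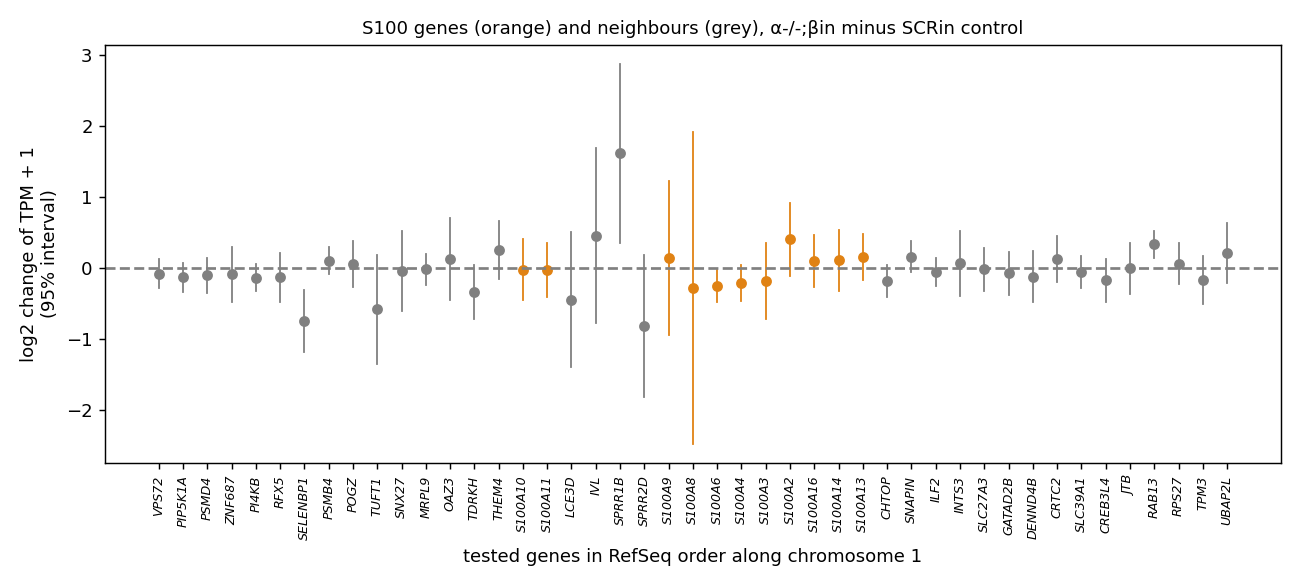
Log2 change of TPM + 1 with 95% limma intervals for 45 tested genes in RefSeq order along chromosome 1, S100 genes in orange and other genes in grey, by rank and not to distance. The S100 genes scatter around 0 like the genes before and after them, with the widest interval for S100A8.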

How the data were processed

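RNA-seq of 6 MCF10A libraries was analysed from a single table. The authors deposited TPM for 27914 genes named by symbol, and each column sums to 1000000. Per the submitters' processing notes, hg19 was used, and DESeq2 is listed with no role. The aligner, quantifier, annotation and strandedness were not given in the sources used here. TPM keeps no depth, so no counting interval can be given. Columns headed as control matched the control samples by replicate number, and the columns headed as experiment, which name no genotype, were assigned by number to the α-/-;βin samples as the only other group.

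TPM was transformed to log2(TPM + 1), which understates changes of low genes, and genes averaging 1 TPM or more (43.3%) were tested with limma 3.58.1 in R 4.3.3, with a mean-variance trend, two-sided, adjusted over all tested genes. The test was tried on simulated data. Exact permutation tests used TPM in scipy 1.17.1. Likeness was the root mean square difference of log2(TPM + 1) relative to the control mean. Promoters and gene order came from RefSeq GRCh38.p14, matched by symbol for 26050 genes and used for no position of the expression values.

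The members and lists were chosen with earlier results of these data known. By rule, the text names all S100 and PIP4K2 genes, the called genes of each list and otherwise its most abundant gene. Alternatives were other pseudocounts, filters and scalings, moderation settings, the replicate block and each library left out. The fit without both replicate 2 libraries was added after seeing the data, and genes outside the rule were chosen after their values were seen.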

Additional observations from a re-analysis of the deposited data

How the results depend on the processing

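Over 17 alternatives, the 9 tested members gave 1 call, S100A2 with the replicate block. The labels only number the replicates and state no pairing, so the main fit did not take the numbers as pairs. The deviations from the group means correlated at 0.246 for number 1, 0.269 for number 2 and -0.015 for number 3. Between unlike numbers the correlations ran from -0.293 to 0.0526. These values do not settle whether equal numbers share a batch or culture, which was not tested. With the replicate block, S100A2 had an adjusted p of 0.0233 at the same log2 change of 0.40, and S100A6 had 0.0596. That fit called 1 member, 2 binding partners, 1 receptor, 2 antimicrobial or interleukin-responsive genes, 2 other EF-hand genes and 881 genes in all (597 lower and 284 higher). It also took TP63 (adjusted p = 0.0127), the partner ANXA6 (0.00846) and CD14 (0.0423) past the threshold at unchanged log2 changes. With replicates 1 and 3 only, 52 genes passed, 44 lower and 8 higher. Receptors gave 1 call with short RNA genes left out and 1 without the mean-variance trend. Both were TLR4, which reached the filter through the controls alone.

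With each library left out in turn, the calls ran from 106 to 219, from 91 to 189 lower and from 13 to 30 higher, and cornified envelope genes gave 0 to 1 call, the 1 without α-/-;βin replicate 2. Log2 changes ran from 0.20 to 0.57 for S100A2, -1.26 to 0.45 for S100A8, -0.31 to 0.50 for S100A9, -0.19 to 0.12 for S100A10, -0.17 to 0.085 for S100A11, -0.031 to 0.26 for S100A14, -0.021 to 0.21 for S100A16, -0.38 to 0.092 for S100A3 and -0.43 to 0.63 for S100P, which turned without α-/-;βin replicate 1, control replicate 2 or control replicate 3. Those changes of sign were all short of the threshold, and the cause was not tested. S100A2, S100A4, S100A6, S100A13 and IL1B kept their direction under all 17, and IL1B its call. Scaling moved the median of all genes by less than 0.1 on the log2 scale. Depth is unknown, so the part of counting error in the spread of S100A8, with a mean of 24.8 TPM, was not tested.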

Other observations

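The genes with library profiles closest to those of the calprotectin genes were found after the values were seen. They were sought among the 9720 genes averaging 5 TPM or more, by the root mean square difference of the 6 library values. The closest to S100A9 was SPOCK1, a matrix proteoglycan, at 0.14, with 23.3, 8.89 and 29.6 TPM in α-/-;βin replicates 1 to 3, against 21.4, 8.62 and 27.3 TPM in control replicates 1 to 3. COL4A1, a basement membrane collagen, followed at 0.17, with 60.7, 28.0 and 75.5 TPM in α-/-;βin cells, against 55.4, 30.4 and 80.0 TPM in controls. EPHB2, an ephrin receptor, came next at 0.18. The closest to S100A8 was AFAP1L2, an actin-associated adaptor, at 0.37, with 10.6, 1.70 and 10.05 TPM in α-/-;βin cells, against 12.7, 2.82 and 13.2 TPM in controls. PLAU, the urokinase plasminogen activator, came after LBH, at 0.51, with 137, 47.6 and 163 TPM in α-/-;βin cells, against 161, 58.7 and 185 TPM in controls. All of these were lowest in replicate 2 of both groups, as S100A8 and S100A9 were. They were picked for likeness to those profiles, so this is no separate support for the replicate 2 pattern.

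The acute phase genes SAA1 and SAA2, whose proteins are close relatives and whose reads may be shared, were also lowest in replicate 2. They were picked after their values were seen, and the antimicrobial and interleukin-responsive list did not move as a whole. In replicate 2 of both groups LCN2, PI3, SLPI, RNASE7 and CXCL2 were lowest as well, but CXCL8, TNFAIP3 and ZC3H12A were highest. SAA1 measured 928, 96.5 and 277 TPM in α-/-;βin cells, against 605, 110 and 367 TPM in controls. The basal keratin KRT17 measured 675, 199 and 594 TPM in α-/-;βin cells, against 420, 139 and 693 TPM in controls. Of the other listed basal keratins, KRT14 and KRT6A were lowest in replicate 2 of both groups, and KRT5 was lowest there in neither. The closest to S100A2 were EYA3, a transcriptional coactivator and phosphatase, and ITGB4, the hemidesmosomal integrin subunit, at 0.08 and 0.11. Both were picked from the same 9720 genes for likeness to S100A2. ITGB4 is also 1 of the 6 basal markers, so its likeness is no separate support for a basal link of S100A2. ITGB4 measured 290, 215 and 261 TPM in α-/-;βin cells, against 223, 134 and 198 TPM in controls.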
